A study of Homo sapiens with 4 samples.

Results

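The transcripts described are those of the kinases and phosphatases that hold or release a cell at the DNA damage and replication checkpoints: ATM, ATR, CHEK1, CHEK2, WEE1, PKMYT1, CDC25A, CDC25B and CDC25C. Array probes other than controls were taken as members when their transcript accession mapped to 1 of these 9 symbols, which gave 16 probes of 50599 on the array, and 9 symbols of 24154. CHEK2 had 6 probes, ATM and ATR had 2 each, and each other gene had 1.

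KYSE180 is an established line of human esophageal squamous cell carcinoma. RNA bound by TIA1, an RNA-binding protein, was collected from cytoplasmic lysates by ribonucleoprotein immunoprecipitation with a rabbit anti-TIA1 antibody (TIA1 RIP) and was compared with total RNA of the same line. Whether that total RNA came from the lysate or from whole cells is not stated in the labels. Each group held 2 arrays, called TIA1 RIP 1 and 2 and total RNA 1 and 2, and 0.2 µg RNA was labelled with Cy3 for each single-colour array. No treatment or genetic change separated the groups, and immunoprecipitates made with control IgG were not analysed here.

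ATM and ATR are the kinases that sense DNA breaks and stalled replication, and they phosphorylate and switch on the effector kinases CHEK2 and CHEK1. The effector kinases inhibit the CDC25 phosphatases, which remove the inhibitory phosphates from the cyclin-dependent kinases, while WEE1 and PKMYT1 place those phosphates. TIA1 is a component of stress granules that binds U-rich RNA and is known for control of splicing, of mRNA stability and of translation.

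All 8 squamous epithelial marker genes checked (DSG3, KRT14, KRT17, KRT5, KRT6A, PKP1, SOX2 and TP63) were detected on all 4 arrays. Of the markers of other cell types, 2 of 4 for blood cells (CD8A and PTPRC), 0 of 4 for fibroblasts and 1 of 3 for endothelium (VWF) were detected on all 4 arrays. The total RNA 2 array stood apart from the other 3. Its 75th percentile signal was 69.9 against 714 to 1514, and 32.0% of its spots were well above background against 45.7% to 48.3%. Across all probes tested the log2 signals of the total RNA arrays correlated with r = 0.751, against r = 0.943 for the TIA1 RIP arrays and r = 0.937 for TIA1 RIP 1 with total RNA 1. Values of the member probes are therefore given against each total RNA array as well as on the means.

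The most U-rich stretch of 30 bases in the 3′ untranslated region (UTR) is shown for the genes whose arrays separated most clearly (CHEK2 and WEE1), for CDC25C, whose stretch was as rich in U although its groups overlapped, and for the genes whose 3′ UTR held 0 runs of at least 5 U (ATR, PKMYT1 and CDC25B). Capitals mark runs of at least 5 U, written as T in the DNA letters of the GRCh37 genome, and each stretch is given 5′ to 3′ on the strand of the gene.
CHEK2: tctttcttttctttgagtctgTTTTTTTat
WEE1: ttatatttcTTTTTTTTTTaattgtgaatt
CDC25C: cttctttctttgtattttccttctttgttt
ATR: ctgttatttctctctgatcattaattatat
PKMYT1: tctgcacttttaaccttttatcctgtgtct
CDC25B: tattttgtgtcctccaggagcttcttgttt
These stretches lie at chr22:29083807-29083836 (minus strand, CHEK2), chr11:9610577-9610606 (plus strand, WEE1), chr5:137621007-137621036 (minus strand, CDC25C), chr3:142168128-142168157 (minus strand, ATR), chr16:3022909-3022938 (minus strand, PKMYT1) and chr20:3785867-3785896 (plus strand, CDC25B). They are descriptions of the annotated transcript and not mapped binding sites. The stretches of ATM, CDC25A and CHEK1, whose groups also overlapped, are not shown. They held 22, 20 and 19 U of 30 bases, and that of ATM was the richest of all members. Of 3′ UTRs of like length (within a factor of 1.25), 43.4%, 48.3% and 64.0% held a stretch as rich.

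CHEK2 had a short and U-rich 3′ UTR. Its 154 nt were 41.6% U, above 99.2% of the 11585 coding genes tested, and held 2 runs of at least 5 U. The stretch shown held 21 U of 30 bases, and 1.78% of the 506 3′ UTRs of like length (within a factor of 1.25) held a stretch as rich, while 34.4% of them held any run of at least 5 U. WEE1 was similar in U content at 39.9% over 1383 nt, with 7 runs of U, in a length class where 93.0% of 3′ UTRs held such a run and 28.0% held a stretch as rich as its 21 U of 30 bases. The CHEK1 3′ UTR of 1827 nt was 36.2% U with 7 runs, and it held 9 copies of AUUUA, the core of AU-rich elements. ATM had the longest 3′ UTR of the members, at 3594 nt with 23 runs of U.

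The 3′ UTR of ATR was also U-rich, at 38.1% U over 194 nt, but its U bases were scattered and formed 0 runs of at least 5. PKMYT1 (145 nt) and CDC25B (1154 nt) likewise held 0 such runs, with 28.3% and 27.6% U against a median of 29.4% over the genes tested. CDC25A held 3 runs over 1799 nt and CDC25C 1 run over 423 nt. The CDC25C stretch, outside that run, held 21 U of 30 bases, and 7.97% of 3′ UTRs of like length held one as rich. Over all the coding genes tested, 78.4% of 3′ UTRs held at least 1 run of 5 U and 69.6% held at least 1 AUUUA.

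Of the 16 probes, 15 were tested, because the 2 arrays of at least 1 group both measured them well above background. Of these, 10 were well above background on all 4 arrays, and 5 (the tested ATM probe, both ATR probes and the CHEK2 probes A_21_P0011391 and A_33_P3386760) were not well above background on total RNA 2. On total RNA 2 that held for 29.4% of all probes tested. The other ATM probe, A_23_P35916, was not well above background on any of the 4 arrays.

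Signals are given first as log2 values relative to the 75th percentile of their own array (scaled log2 signal), which compares arrays for a given probe and not probes with each other. Enrichment is the log2 difference between TIA1 RIP and total RNA after the GAPDH value of each array was subtracted. The study compared its immunoprecipitated mRNAs with GAPDH mRNA in this way and took 2.5-fold as the criterion. It required that fold in both microarray and sequencing data, and only the microarrays are used here. The study also reported binding of CHEK1 and CHEK2 mRNA by quantitative PCR after immunoprecipitation, relative to IgG, which is not used here. GAPDH, the glycolytic enzyme used as the reference, had raw signals of 135771 and 131367 in TIA1 RIP and 145089 and 55429 in total RNA. On the 75th percentile scale GAPDH was lower in TIA1 RIP on the means, with a log2 ratio of -2.06 (SE 0.94, limma adjusted p = 0.745), and most probes lay above GAPDH in TIA1 RIP. The median enrichment over all 20105 probes tested was 1.95 log2 units.

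**Figure D1:**
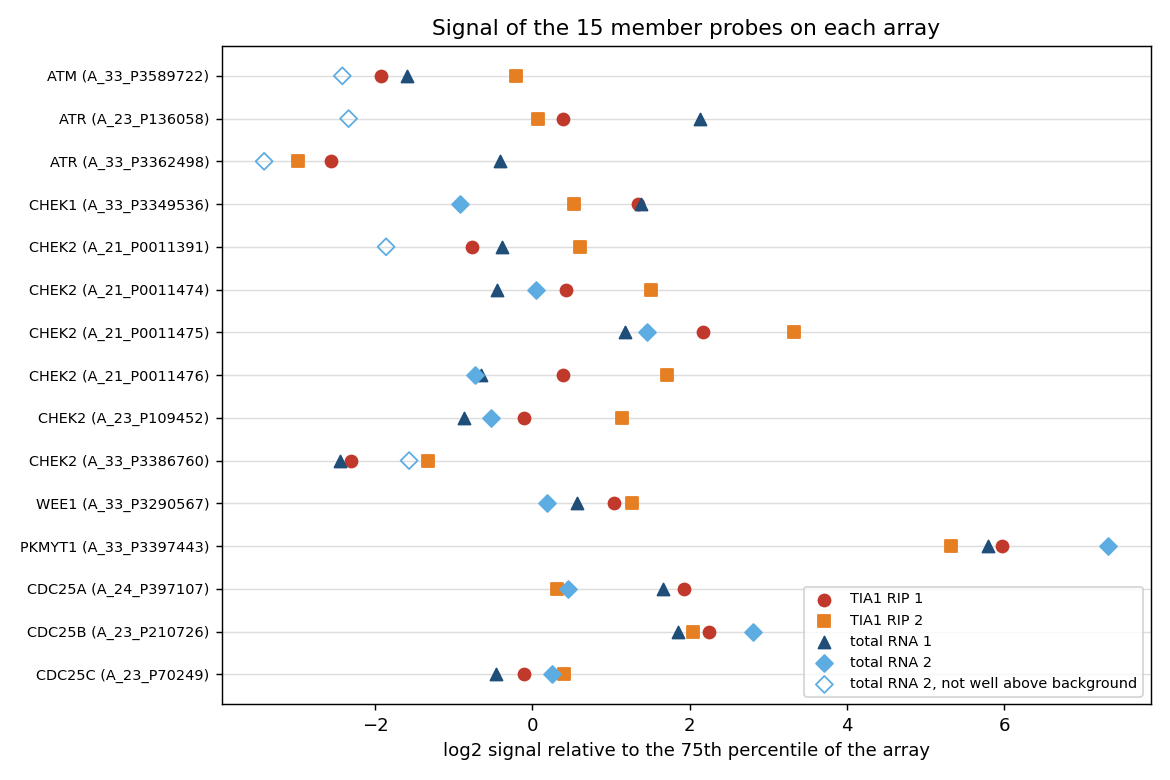
The plot shows the scaled log2 signal (x axis, relative to the 75th percentile of the array) of each tested member probe (y axis) on the 4 arrays, with open symbols where the spot was not well above background. On 4 CHEK2 probes and on WEE1 both TIA1 RIP arrays lie to the right of both total RNA arrays, and the total RNA arrays lie far apart on ATR and CHEK1.

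The sensor kinases gave no separation of the groups. ATM, which responds to double-strand breaks, lies on the plus strand of chromosome 11 (chr11:108093771-108239829). Its tested probe (A_33_P3589722) read -1.93 and -0.21 in TIA1 RIP and -1.60 and -2.42 in total RNA in scaled log2 signal. TIA1 RIP 2 was the highest and TIA1 RIP 1 lay between the total RNA arrays. Enrichment over GAPDH was 3.002 log2 units (SE 1.249, n = 2 arrays per group), or 8.01-fold on the means, with a limma adjusted p of 0.212. Against total RNA 1 ATM was 1.81-fold above GAPDH on TIA1 RIP 1 and 5.16-fold on TIA1 RIP 2. Against total RNA 2 it read 12.4-fold and 35.5-fold. Its spot was not well above background there, so these folds and the mean rest on a bound.

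ATR, the kinase for stalled replication forks and single-stranded DNA, lies on the minus strand of chromosome 3 (chr3:142167849-142297575). Probe A_23_P136058 read 0.38 and 0.07 in TIA1 RIP, 2.13 on total RNA 1 and -2.34 on total RNA 2. Probe A_33_P3362498 read -2.56 and -2.98 in TIA1 RIP, -0.41 on total RNA 1 and -3.41 on total RNA 2. On both probes the TIA1 RIP arrays lay between the total RNA arrays and close to each other.

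The direction of ATR therefore differed with the total RNA array used. Against total RNA 1, where the spots were well above background, the first probe was 0.675-fold and 0.473-fold relative to GAPDH and the second 0.511-fold and 0.330-fold. Against total RNA 2, where they were not, the enrichment ran from 10.3-fold to 58.3-fold. On the means the ATR probes were 2.39 (SE 2.30, limma adjusted p = 0.423) and 1.20 (SE 1.82, limma adjusted p = 0.599) log2 units above GAPDH, and these are the largest standard errors among the members. ATR was the only member with a ratio to GAPDH below 1 in both pairs with total RNA 1.

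CHEK1, the effector kinase downstream of ATR, lies on the plus strand of chromosome 11 (chr11:125495058-125546150). Its probe (A_33_P3349536) read 1.34 and 0.53 in TIA1 RIP, 1.38 on total RNA 1 and -0.92 on total RNA 2, and was well above background on all 4. TIA1 RIP 1 minus total RNA 1 was -0.03 log2 units, and the groups overlapped. CHEK1 was 2.77 log2 units above GAPDH on the means (6.80-fold, SE 1.62, limma adjusted p = 0.255).

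That mean joined values of unlike size. CHEK1 was 2.22-fold and 1.09-fold above GAPDH against total RNA 1, below the 2.5-fold criterion in both pairs, and 42.4-fold and 20.9-fold against total RNA 2.

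CHEK2, the effector kinase downstream of ATM, lies on the minus strand of chromosome 22 (chr22:29083731-29138410). On 4 of its 6 probes both TIA1 RIP arrays were above both total RNA arrays, and all 4 were well above background on every array. Probe A_21_P0011474 read 0.42 and 1.51 in TIA1 RIP against -0.46 and 0.04 in total RNA. Probe A_21_P0011475 read 2.17 and 3.33 against 1.17 and 1.46, and probe A_21_P0011476 read 0.39 and 1.71 against -0.65 and -0.72. Probe A_23_P109452 read -0.10 and 1.14 against -0.87 and -0.52. Total RNA 2 minus total RNA 1 ran from -0.07 to 0.50 log2 units on these probes, and TIA1 RIP 2 was above TIA1 RIP 1 on each.

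Enrichment of these 4 probes over GAPDH was 3.23 (SE 0.85), 3.49 (SE 0.91), 3.80 (SE 1.01) and 3.27 (SE 0.90) log2 units in the order given, or 9.39-fold to 13.9-fold. Each had an unadjusted limma p below 0.05, the lowest being 0.016, and each had a limma adjusted p of 0.212. Without the comparison to GAPDH, on the 75th percentile scale, they were 1.17 to 1.74 log2 units higher in TIA1 RIP, with limma adjusted p from 0.745 to 0.761. All 4 were over 2.5-fold above GAPDH in each of the 4 pairs of arrays, the lowest being 3.85-fold and the highest 41.5-fold.

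The remaining CHEK2 probes were less regular. Probe A_21_P0011391 read -0.76 and 0.60 in TIA1 RIP against -0.38 and -1.86 in total RNA, so that TIA1 RIP 1 lay below total RNA 1. It was 1.74-fold above GAPDH for TIA1 RIP 1 over total RNA 1 and 3.88-fold for TIA1 RIP 2 over total RNA 1. Over total RNA 2, where its spot was not well above background, it read 18.9-fold and 42.2-fold. Probe A_33_P3386760, designed on another CHEK2 transcript accession, read -2.30 and -1.33 against -2.45 and -1.57. Its lowest ratio, TIA1 RIP 1 over total RNA 1, was 2.501-fold and just past the criterion, followed by 4.27-fold for TIA1 RIP 2 over total RNA 1. Over total RNA 2, where this probe too was not well above background, it read 5.31-fold and 9.07-fold.

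Of the 6 CHEK2 probes, 5 carry the same transcript accession, so the 6 are not independent measurements of CHEK2. All 6 were higher on TIA1 RIP 2 than on TIA1 RIP 1, by 0.98 to 1.36 log2 units, where the SD of that difference over all probes tested was 0.87. The annotation also lists 7 CHEK2 pseudogenes and 2 WEE1 pseudogenes, and how far the probes read them was not tested. Effector kinases were compared through the mean of the 4 CHEK2 probes detected on all arrays. CHEK2 was 0.68 log2 units above CHEK1 in enrichment, and its value was the higher in 3 of 4 pairs of arrays (exact permutation test, two-sided p = 0.667, adjusted p = 0.800 over 6 comparisons). With 2 arrays per group the smallest p this test can give is 0.333.

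WEE1, the nuclear kinase that places the inhibitory tyrosine phosphate on CDK1, lies on the plus strand of chromosome 11 (chr11:9595217-9615004). Its probe (A_33_P3290567) read 1.03 and 1.26 in TIA1 RIP and 0.57 and 0.18 in total RNA. Both TIA1 RIP arrays were above both total RNA arrays. Enrichment over GAPDH was 2.83 log2 units (7.12-fold, SE 1.01, limma adjusted p = 0.212), and on the 75th percentile scale the difference was 0.77 (SE 0.78, limma adjusted p = 0.821). WEE1 was 3.13-fold and 3.18-fold above GAPDH against total RNA 1, and 15.95-fold and 16.22-fold against total RNA 2. The ratio differed little between the TIA1 RIP arrays and several-fold between the total RNA arrays.

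PKMYT1, the membrane-bound relative of WEE1 that inhibits CDK1 in the cytoplasm, lies on the minus strand of chromosome 16 (chr16:3018025-3030480). Its probe (A_33_P3397443) read 5.96 and 5.32 in TIA1 RIP and 5.80 and 7.32 in total RNA. The groups overlapped, and total RNA 2 was the highest. PKMYT1 was 1.15 log2 units above GAPDH on the means (2.21-fold, SE 0.70, limma adjusted p = 0.264), the lowest mean of the members. Against total RNA 1 it averaged 0.93, where ATR (-0.82 and -1.28), CDC25A (0.54) and CHEK1 (0.64) lay lower. It was over the criterion only in the pairs of TIA1 RIP 1, at 2.55-fold and 3.45-fold, with 1.42-fold and 1.92-fold in those of TIA1 RIP 2. The PKMYT1 signal on total RNA 1 was above that of 95.9% of the probes tested. In the highest decile of probes by that signal the median enrichment was 1.20 log2 units on the means. Against total RNA 1 that decile had medians of 0.68 and 0.25. The part of signal level was not tested.

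WEE1 against PKMYT1 gave the largest difference on the means among the 6 comparisons between members. WEE1 was 1.69 log2 units above PKMYT1 in enrichment, by 0.30 and 1.17 against total RNA 1 and by 2.21 and 3.08 against total RNA 2. It was the higher in 4 of 4 pairs. The exact permutation p was 0.333 (two-sided), the smallest the design allows, with an adjusted p of 0.800 over the 6 comparisons. The transcripts also lie in different deciles of GC content. Against total RNA 2 the median probe of the WEE1 decile was at 3.30 and that of the PKMYT1 decile at 1.03. Against total RNA 1 these medians were 1.12 and 1.08.

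**Figure D2:**
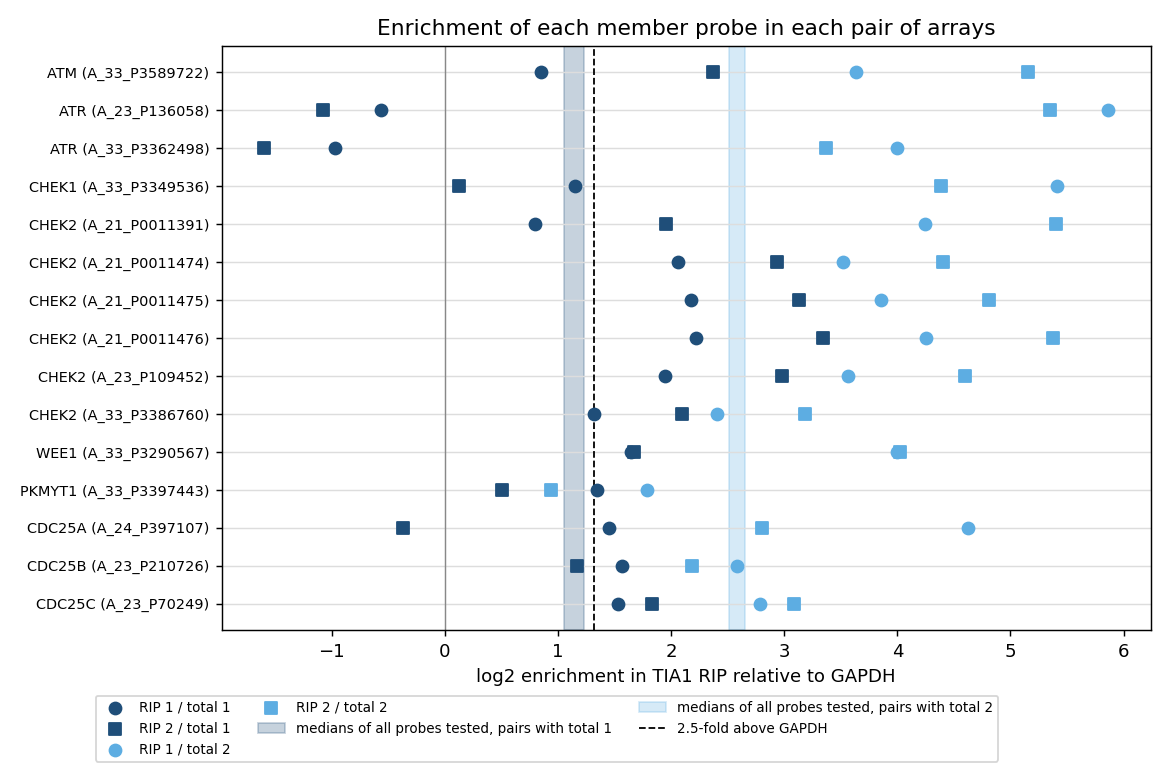
The plot shows log2 enrichment relative to GAPDH (x axis) of each tested member probe (y axis) for each TIA1 RIP array over each total RNA array, with a dashed line at 2.5-fold and bands between the medians of all probes tested, 1.06 to 1.23 for total RNA 1 and 2.51 to 2.65 for total RNA 2. For a given TIA1 RIP array the pair with total RNA 2 lies further right than the pair with total RNA 1 for every probe, by most for ATR and CHEK1.

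CDC25A, the phosphatase that acts at entry into S phase and is degraded after DNA damage, lies on the minus strand of chromosome 3 (chr3:48198636-48229907). Its probe (A_24_P397107) read 1.92 and 0.31 in TIA1 RIP and 1.66 and 0.45 in total RNA. TIA1 RIP 1 was the highest and TIA1 RIP 2 the lowest of the 4. CDC25A was 2.13 log2 units above GAPDH on the means (4.36-fold, SE 1.40, limma adjusted p = 0.285), with 2.73-fold for TIA1 RIP 1 and 0.774-fold for TIA1 RIP 2 against total RNA 1. Against total RNA 2 it was 24.6-fold and 6.98-fold.

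CDC25B, which starts CDK1 activation at the centrosome, lies on the plus strand of chromosome 20 (chr20:3767419-3786768). Its probe (A_23_P210726) read 2.24 and 2.04 in TIA1 RIP and 1.85 and 2.80 in total RNA. The TIA1 RIP arrays lay between the total RNA arrays. Enrichment was 1.87 log2 units (3.67-fold, SE 0.72, limma adjusted p = 0.212), and 3 of 4 pairs were over 2.5-fold, with values from 2.24-fold and 2.96-fold against total RNA 1 to 4.54-fold and 5.99-fold against total RNA 2.

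CDC25C, the phosphatase for entry into mitosis that CHEK1 and CHEK2 mark for binding by 14-3-3 proteins, lies on the minus strand of chromosome 5 (chr5:137620958-137674044). Its probe (A_23_P70249) read -0.11 and 0.39 in TIA1 RIP and -0.46 and 0.25 in total RNA. TIA1 RIP 2 was the highest and total RNA 1 the lowest, and the groups overlapped. CDC25C was 2.31 log2 units above GAPDH (4.95-fold, SE 0.76, limma adjusted p = 0.212), and it passed 2.5-fold in all 4 pairs, from 2.88-fold to 8.50-fold.

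Differences between the CDC25 phosphatases on the means were smaller than their range over the 4 pairs of arrays. CDC25C was 0.43 log2 units above CDC25B and CDC25A 0.25 above CDC25B, while CDC25A minus CDC25C was -0.18. Single pairs of arrays differed more, and CDC25A minus CDC25B ran from -1.54 to 2.04 log2 units over the 4 pairs. The exact permutation p was 0.667 for CDC25C over CDC25B and for CDC25A over CDC25C and 1.00 for CDC25A over CDC25B. ATM over ATR, the sixth comparison, gave 1.21 log2 units on the means, higher in 3 of 4 pairs (exact permutation p = 0.667).

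No member probe passed an adjusted p of 0.05, and neither did any other probe. On the 75th percentile scale the lowest limma adjusted p was 0.677 over all probes tested and 0.745 over the members. At an unadjusted p below 0.05, 231 probes (1.15%) were higher and 936 (4.66%) lower, and 0 of the 15 member probes were in either group. Relative to GAPDH the lowest limma adjusted p was 0.212. At an unadjusted p below 0.05 there were 7 of 15 member probes higher against a background of 21.9%, and 0 of 15 lower against 0.811%. The 7 were WEE1, CDC25C and every CHEK2 probe but A_21_P0011391, so most read a single gene and are not independent. Of these, CHEK2 A_33_P3386760 was not well above background on total RNA 2. Member probes passed an adjusted p of 0.05 only without total RNA 1, when total RNA 2 was the only total RNA array. Median enrichment over GAPDH in that setting was 4.01 log2 units for the member probes and 2.57 for all probes. The labels do not say that the arrays of a group came from separate cultures, so these p-values measure only the spread between samples, which may be technical, and the number of arrays limits the precision.

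Most members met the 2.5-fold criterion on the means, as most probes did. Of the 15 member probes 13 were over 2.5-fold above GAPDH, against 70.7% of all probes tested, the exceptions being PKMYT1 and ATR A_33_P3362498. Without total RNA 2 the counts on the means were 10 of 15 member probes and 8563 of the 20104 probes tested. Among probes detected on all 4 arrays the counts were 9 of 10 members against 62.3%. Against total RNA 1, 10 of 15 were over the criterion for TIA1 RIP 1 (background 45.5%) and 9 of 15 for TIA1 RIP 2 (background 41.2%). With total RNA 2, 15 of 15 (background 74.6%) and 14 of 15 (background 76.2%) were over it. Since the pairs share arrays, these counts are not independent of each other.

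In all 4 pairs 7 of 15 member probes were over 2.5-fold, against 26.4% of all probes. They were 5 CHEK2 probes, WEE1 and CDC25C. Counted over probes detected on all 4 arrays, 6 of 10 member probes met this against 24.1%. On the 75th percentile scale, where GAPDH plays no part, both TIA1 RIP arrays were above both total RNA arrays for 5 of 15 member probes (background 17.8%), namely 4 CHEK2 probes and WEE1, and below both for 0 of 15 (background 23.1%). Since 4 of these 5 read CHEK2, the counts stand for 2 genes. The same CHEK2 count of 4 and the WEE1 probe were found with the normexp background correction, which added CDC25B (6 of 15, background 16.5%), and with median scaling, which added CDC25C (6 of 15, background 21.4%). Quantile normalization gave 5 CHEK2 probes and WEE1 (6 of 15, background 24%). ATR had 1 probe below both total RNA arrays with the normexp correction and 0 with the other scalings.

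The median of the member probes was 2.77 log2 units above GAPDH, against 1.95 for all probes, and without total RNA 2 these medians were 1.61 and 1.15. In the single pairs with total RNA 1 the member medians were 1.45 and 1.83, against 1.23 and 1.06 for all probes. The member median was 0.71 on the 75th percentile scale, against -0.11 for all probes. Higher means in TIA1 RIP on that scale were found for 12 of 15 member probes, with a background of 46%. All 6 CHEK2 probes were among them. CHEK2 gave 6 of the 15 probes, so the member medians and this count weigh that gene most. Genes with 1 tested probe ran from -0.91 (PKMYT1) to 0.94 (ATM) on that scale. Of the 15, 5 were not well above background on total RNA 2 and were tested only through TIA1 RIP. For probes detected on all 4 arrays (10 member probes, of which 4 read CHEK2) the member medians were 2.80 relative to GAPDH and 0.74 on the 75th percentile scale. The medians of all such probes were 1.65 and -0.41. The direction on that scale was not stable for every member. ATR A_33_P3362498, PKMYT1 and CDC25B were lower in TIA1 RIP on the means (-0.86, -0.91 and -0.19) and turned to higher with quantile normalization (0.063, 0.069 and 0.0022). Scaling to the E1A spike-in spots moved the median of all probes by 3.86 log2 units. On that scale both TIA1 RIP arrays were above both total RNA arrays for 13 of 15 member probes, against 94% of all probes.

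The GC content of a transcript moved with its enrichment against total RNA 2 and hardly against total RNA 1. Over the lowest to the highest decile of probes by transcript GC content, the median enrichment against total RNA 2 went from 5.28 to 1.03 log2 units, and against total RNA 1 from 1.31 to 1.08. ATM and ATR transcripts, at 38.6% and 39.7% GC, and CHEK1, at 41.6%, were among the GC-poor genes, and PKMYT1, at 67.3%, was in the highest decile. Against total RNA 2 CHEK1 was 4.90 log2 units above GAPDH where the median of its decile was 4.48, and PKMYT1 was 1.36 where the median was 1.03. The part of GC content in these values was not tested.

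CHEK2, at 45.1% GC, was in the decile with medians of 1.14 against total RNA 1 and 3.88 against total RNA 2. Its 4 probes detected on all arrays were at 2.46 to 2.78 against total RNA 1, all past the median of that decile, and at 3.96 to 4.82 against total RNA 2. WEE1 was at 1.66 against total RNA 1, where its decile had a median of 1.12, and at 4.01 against total RNA 2, with a median of 3.30. CDC25C was at 1.68 against total RNA 1 and, at 2.94, below that median of 3.30 against total RNA 2. CHEK1 and CDC25A, at 0.64 and 0.54 against total RNA 1, lay below the medians of their deciles (1.11 and 1.09).

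**Figure D3:**
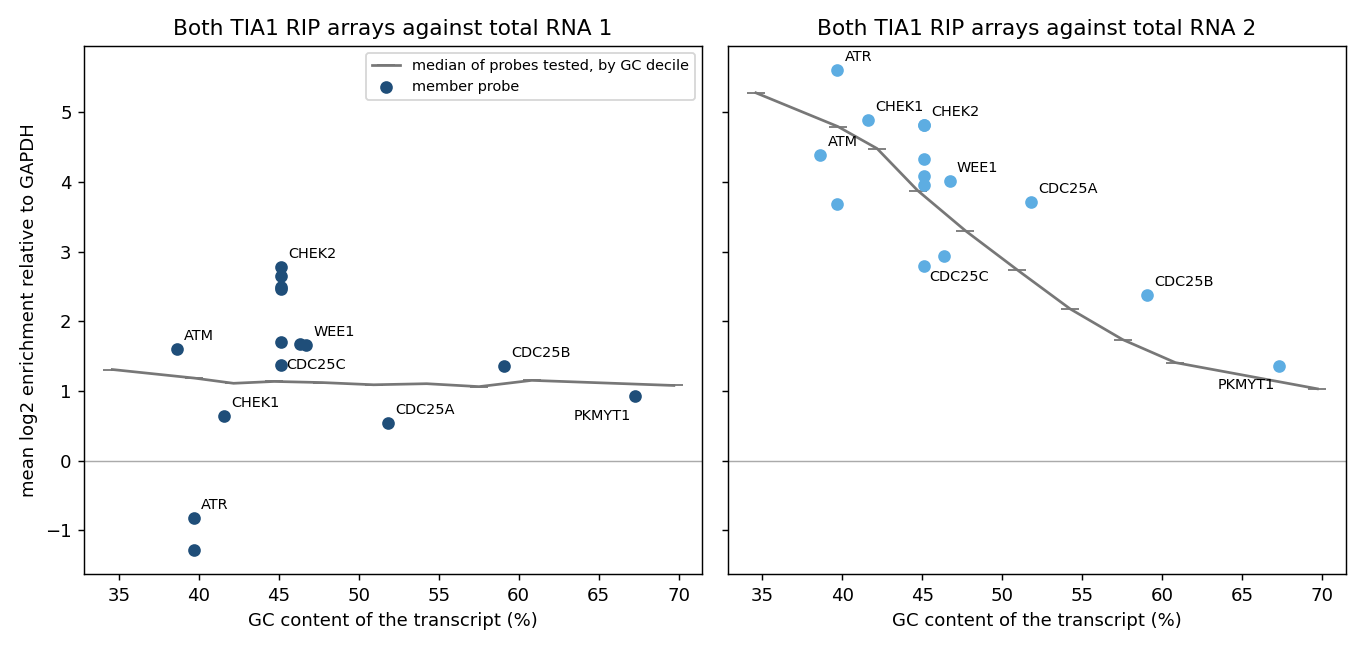
The plot shows mean log2 enrichment relative to GAPDH (y axis) of both TIA1 RIP arrays over total RNA 1 (left) and total RNA 2 (right) against the GC content of the transcript in percent (x axis). Points are member probes and the grey line joins the medians of the deciles of probes by GC content; the line is nearly flat on the left and falls from 5.28 to 1.03 on the right, with CHEK2 above it and ATR below it on the left.

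The shape over the 4 arrays was compared between the members. After each log2 profile was centred on its own mean, CHEK1 and CDC25A were each other's nearest member, at a Euclidean distance of 1.15 over the 4 arrays. Both were higher on TIA1 RIP 1, with TIA1 RIP 2 minus TIA1 RIP 1 at -0.82 and -1.61 log2 units. Both were also lower on total RNA 2, with total RNA 2 minus total RNA 1 at -2.29 and -1.21. The 4 CHEK2 probes were nearest to WEE1 among the other members (0.96 to 1.26), while WEE1 was itself nearest to CDC25C (0.95). CDC25B and CDC25C were nearest to each other (0.68). PKMYT1 was nearest to CDC25B (0.89).

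The other genes of the checkpoint were taken from lists of components that act upstream of the kinases and of their downstream targets and cell cycle partners. Of 22 upstream genes, 20 had a tested probe, 23 probes in all, and 0 passed an adjusted p of 0.05 in either direction on either scale. Their median enrichment was 2.35 log2 units on the means, above the 1.95 of all probes. Against total RNA 1 it was 0.52 and 0.81, below the all-probe medians of 1.23 and 1.06. On the means 19 probes were over 2.5-fold (82.6%, against 70.7% of all probes), and 6 in all 4 pairs (26.1%, against 26.4%). Among genes detected on all 4 arrays the highest were RPA2 (3.17) and RPA1 (2.53), subunits of the complex that coats single-stranded DNA. The lowest were ATRIP (0.69), the partner of ATR, and MDC1 (0.48), an adaptor at double-strand breaks.

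In the pairs with total RNA 1 ATRIP was at -0.07 and -0.71 log2 units and MDC1 at -0.16 and -0.48, and in those with total RNA 2 they were at 2.08 and 1.44 and at 1.44 and 1.13. RPA2 was above GAPDH by 1.98 to 4.35 log2 units in the 4 pairs. Limma gave RPA2 an adjusted p of 0.212 and ATRIP one of 0.579.

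Of 29 downstream genes, 28 had a tested probe, 37 probes in all, and 0 passed an adjusted p of 0.05 in either direction on either scale. The median was 2.65 log2 units on the means, against 1.95 for all probes. Against total RNA 1 it was 1.64 and 1.07, where all probes had 1.23 and 1.06. On the means 33 probes were over 2.5-fold (89.2%, against 70.7% of all probes), and 13 in all 4 pairs (35.1%, against 26.4%). CDK1, the kinase that WEE1 and PKMYT1 inhibit and CDC25 activates, was the highest among genes detected on all 4 arrays, at 4.37 log2 units. Its scaled log2 signal was 4.18 and 4.20 in TIA1 RIP and 2.87 and 0.88 in total RNA, with no overlap of the groups (limma adjusted p = 0.212 relative to GAPDH). BORA, an activator of the mitotic kinase PLK1 through AURKA, followed at 4.35, with 2.30 and 1.57 against total RNA 1. The lowest were FZR1 (0.82), an activator of the anaphase-promoting complex, and SFN (0.45), the 14-3-3 protein sigma that holds CDK1 in the cytoplasm after DNA damage. Against total RNA 1 FZR1 was at 1.12 and -1.45 and SFN at 0.20 and -1.45.

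**Figure D4:**
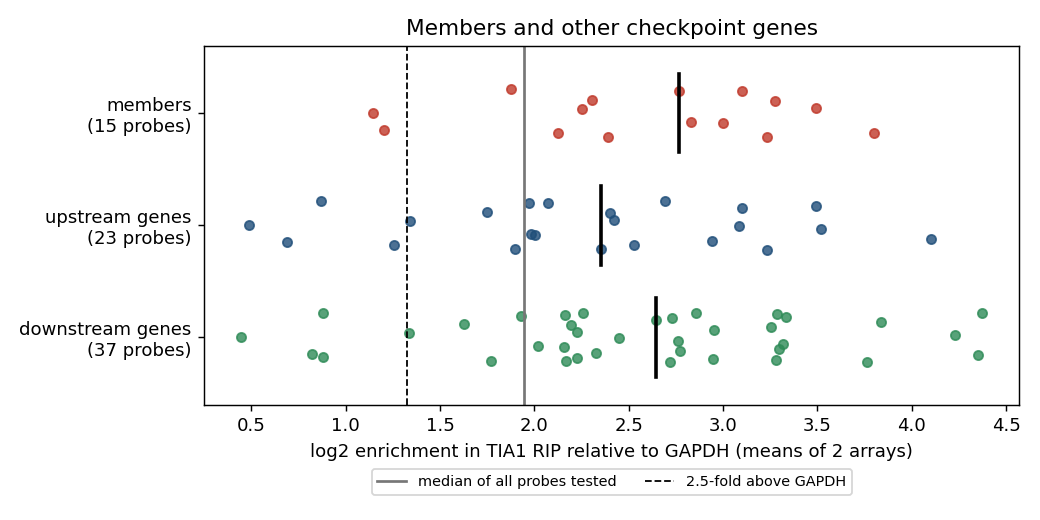
The plot shows log2 enrichment relative to GAPDH on the means of 2 arrays per group (x axis) for the 15 member probes, 23 probes of upstream genes and 37 probes of downstream genes (y axis), with black bars at the group medians of 2.77, 2.35 and 2.65. Of the member probes, 6 read CHEK2. A grey line marks the median of all probes tested at 1.95 and a dashed line marks 2.5-fold. The 3 groups overlap along most of the axis.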

How the data were processed

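Total RNA and TIA1 RIP RNA of KYSE180 cells were each hybridised to 2 single-colour arrays, all 4 on 1 slide in 1 scan session. The authors deposited scanner output of Agilent Feature Extraction 10.7.1.1, in which each spot has a fluorescence intensity on a linear scale, not normalized between arrays. Their own normalization in GeneSpring was not used here. The methods assess RNA of the input lysates, but the labels do not say whether total RNA came from lysate or whole cells.

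The deposited processed intensity was converted to log2, uneven and outlier spots (299 to 382 of 58717 per array) were left out, values were set relative to the array's own 75th percentile, and replicate spots were averaged by probe. Detection of a probe on an array needed at least 0.5 of its spots well above background, and a probe entered the test when the 2 arrays of either group detected it (20106 probes). Symbols came from RefSeq and GENCODE (34510 of 50599 probes), and features and coordinates from GENCODE on GRCh37, the build of the file headers. TIA1 RIP and total RNA were compared with limma 3.58.1 in R 4.3.3 (lmFit, eBayes), on this scale and after subtraction of GAPDH, with Benjamini-Hochberg adjustment over all probes. Differences between members used exact permutation tests. Scripts were tested on simulated data, and pandas 2.3.3 and matplotlib 3.10.9 in Python 3.11.15 were used for tables and plots. Raw mean spot signals were not used here, so the normexp correction (offset 50) used the median spot and background signals.

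The members, the lists of other checkpoint genes and the tests were chosen with earlier results of these data known. Named genes were every member probe, GAPDH and ACTB, and the 2 highest and 2 lowest genes of each list among those detected on all 4 arrays. Alternatives covered the background correction, scaling, filter, reference, fold, replicate block and each array left out. A block for the slide could not be fitted, and a GC correction was not run because only 74.8% of the probes tested had a GC value.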

Additional observations from a re-analysis of the deposited data

How the results depend on the processing

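With 2 arrays per group the low signal of total RNA 2 limits most values, and 5 of the 15 member probes were not well above background on that array. No setting but the omission of total RNA 1 brought a member probe past an adjusted p of 0.05. In that setting the lone total RNA array was assumed to vary like the other group. The median enrichment over GAPDH was then 4.01 log2 units for the member probes and 2.57 for all probes.

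For all probes, where limma called 0 higher and 0 lower on the 75th percentile scale, the replicate block called 93 higher and 553 lower (0 members, lowest member adjusted p = 0.354), and 0 relative to GAPDH. Same-numbered arrays deviated together (r = 0.439), but the labels do not say that a number marks a pair. No filter gave 54 lower. Leaving out each array gave 0 to 2898 higher and 0 to 4038 lower (6 without TIA1 RIP 1). Probes past both 2.5-fold above GAPDH and the adjusted threshold ranged from 0 to 14279.

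The count over 2.5-fold on the means (14213) was 6244 with quantile normalization, 8355 for probes on all 4 arrays, 25357 with no filter and 2618 with the median of all probes as the reference, and 8563 to 15210 with each array left out. The lowest was without total RNA 2. The 13 of 15 member probes became 8 with quantile normalization, against 6244 of 20105 probes tested. With the median reference they became 2, against 2618 of 20106, so that the member share was close to that of all probes. With each array left out they became 10 to 15.

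Directions turned for 25 values of single member probes, none past the threshold. They belonged to CHEK1, CHEK2 A_33_P3386760, both ATR probes, PKMYT1, CDC25A, CDC25B and CDC25C. ATM, WEE1 and the other CHEK2 probes kept their direction in every setting. With the normexp correction the ratio on the 75th percentile scale was -0.42 for CHEK2 A_33_P3386760, -0.47 for ATR A_23_P136058 and 0.23 for CDC25B. CDC25B was 0.047 with median scaling. Quantile normalization gave 0.063 for ATR A_33_P3362498, 0.069 for PKMYT1 and 0.0022 for CDC25B, and E1A scaling gave 3.003, 2.95 and 3.68. Enrichment of the same probes was 1.20, 1.15 and 1.87 relative to GAPDH, and -0.76, -0.81 and -0.084 relative to the median of all probes. With each array left out, the 75th percentile ratio ran from -0.44 to 1.85 for CHEK1 and -0.30 to 0.68 for CHEK2 A_33_P3386760. It ran from -1.90 to 2.57 for ATR A_23_P136058 and -2.36 to 0.64 for ATR A_33_P3362498. For CDC25A it ran from -0.74 to 0.87, for CDC25B from -0.66 to 0.29 and for CDC25C from -0.11 to 0.60. Enrichment over GAPDH ran from -0.82 to 5.61 and -1.28 to 3.68 for the ATR probes. The cause was not tested. The other 310 values of single member probes kept their direction and side of the threshold.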
